A study of Mus musculus with 17 samples.

Results

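The leukocyte integrins described here are 10 genes, Itgal, Itgam, Itgax, Itgb2, Itga4, Itgb7, Itga9, Itga6, Itgb1 and Itgb5, taken by their symbols from the 22859 genes of the count table. All 10 passed the filter on low counts that left 15272 genes for testing. The data are bulk RNA-seq counts of macrophages sorted from digested mouse synovium, the membrane that lines joints. There were 17 libraries in 6 groups, made of 3 sorted subsets, LYVE1+CX3CR1+, MHCII+CD11c- and MHCII+CD11c+, each taken from mice labelled as controls and from mice 8 h after immune complexes (IC) were given into a vein. IC are antibodies bound to their antigen. Each group held 3 libraries except MHCII+CD11c+ macrophages after IC, which held 2. The subset names Lyve1, IAIE and CD11c in the labels were read as these gates, IAIE being the mouse MHC class II molecules, and the subsets are called LYVE1+, CD11c- and CD11c+ macrophages from here on. Every mouse, controls included, was labelled Fcgr2b-KO, a knockout of the inhibitory receptor for immunoglobulin G, and mice of both sexes were adult. This receptor normally dampens signals from IC, and no library from mice with an intact gene was analysed here. The labels do not say whether libraries of a group came from separate animals, so p-values measure only the spread between these libraries.

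Integrins are receptors made of 1 alpha and 1 beta chain that hold cells to other cells and to the matrix. The beta2 chain, CD18, pairs with the CD11 alpha chains on leukocytes to form LFA-1, Mac-1 and p150,95, which bind ICAMs, fibrinogen and complement-coated particles. The alpha4 chain pairs with beta1 or beta7 and binds VCAM-1, fibronectin and, with beta7, MAdCAM-1. Alpha6 with beta1 binds laminin, alpha9 with beta1 binds tenascin, osteopontin and VCAM-1, and beta5 pairs with alphav as a receptor for vitronectin.

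Libraries held between 2301913 and 7248939 counts. Fcgr2b had between 167 and 1168 counts in the libraries. Its levels were 84.9 to 116 CPM (counts scaled to a common library total) in LYVE1+ controls and 69.3 to 248 CPM over all libraries, and the table does not tell which exons the reads came from. With every library drawn down to the same total, LYVE1+ libraries after IC had 13427, 13837 and 11547 genes with a count, and the other libraries had between 13800 and 17512. The summed level of 8 macrophage markers was between 2170 and 10100 CPM in every library and was lowest in CD11c+ controls, at 2170 to 3550 CPM. The CD11c- and CD11c+ groups were uneven in genes of the LYVE1+ subset. Vsig4, a complement receptor of lining macrophages, was at 29.0, 306 and 22.4 CPM in CD11c- controls and at 1.06, 81.2 and 0 CPM in CD11c+ controls, highest in the second library of both groups. Not every such gene followed this, since Timd4, a receptor for phosphatidylserine on resident macrophages, was lowest in the second library of CD11c- controls, at 46.1 CPM against 80.4 and 148 CPM.

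CD11c is the product of Itgax and CD11b that of Itgam, its neighbour on chromosome 7. Their promoters are shown because the levels of these neighbours parted between subsets, and that of Itgb7 because its level followed the order of Itgax. Each sequence runs from 150 bases before the start of the gene to base 30 of the transcript, in the direction of the gene, as given by RefSeq on GRCm38.p6. Capitals mark 6-base matches to a PU.1-type motif, GAGGAA, or a RUNX-type motif, TGTGGT, on either strand.
Itgam, chr7:128062490-128062669, plus strand: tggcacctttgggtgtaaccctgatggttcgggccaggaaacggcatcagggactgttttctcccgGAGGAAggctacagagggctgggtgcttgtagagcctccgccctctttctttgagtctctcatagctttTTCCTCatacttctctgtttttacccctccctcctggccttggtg
Itgax, chr7:128129400-128129579, plus strand: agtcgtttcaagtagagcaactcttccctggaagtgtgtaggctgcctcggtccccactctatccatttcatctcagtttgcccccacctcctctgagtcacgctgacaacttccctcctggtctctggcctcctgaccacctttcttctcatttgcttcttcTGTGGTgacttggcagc
Itgb7, chr15:102231906-102232085, minus strand: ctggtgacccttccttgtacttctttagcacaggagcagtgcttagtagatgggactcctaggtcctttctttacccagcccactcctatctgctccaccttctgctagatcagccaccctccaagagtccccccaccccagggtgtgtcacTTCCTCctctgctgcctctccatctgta

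The matches in these stretches were PU.1-type motifs 84 and 15 bases before the start of Itgam and at base 3 of the Itgb7 transcript, and a RUNX-type motif at base 14 of the Itgax transcript. RefSeq promoters of 300 bases were matched for 7 of the 10 integrins. Among 32851 promoters of this length, 28.3% held the PU.1-type and 16.8% the RUNX-type letters, so these matches are a description of the sequence and not of binding.

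Levels of the 10 genes fell into those that ranged 3.73-fold or less between libraries and those that spanned orders of magnitude. Itgb1, the beta1 chain, ranged from 450 to 872 CPM, 1.94-fold in all. Itgam ranged 2.36-fold, Itga4 3.27-fold and Itgb2 3.73-fold. Ranges were 53.5-fold for Itgb5, 108-fold for Itga6, 136-fold for Itgb7 and 265-fold for Itga9, and Itgal and Itgax had libraries with 0 counts.

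**Figure D1:**
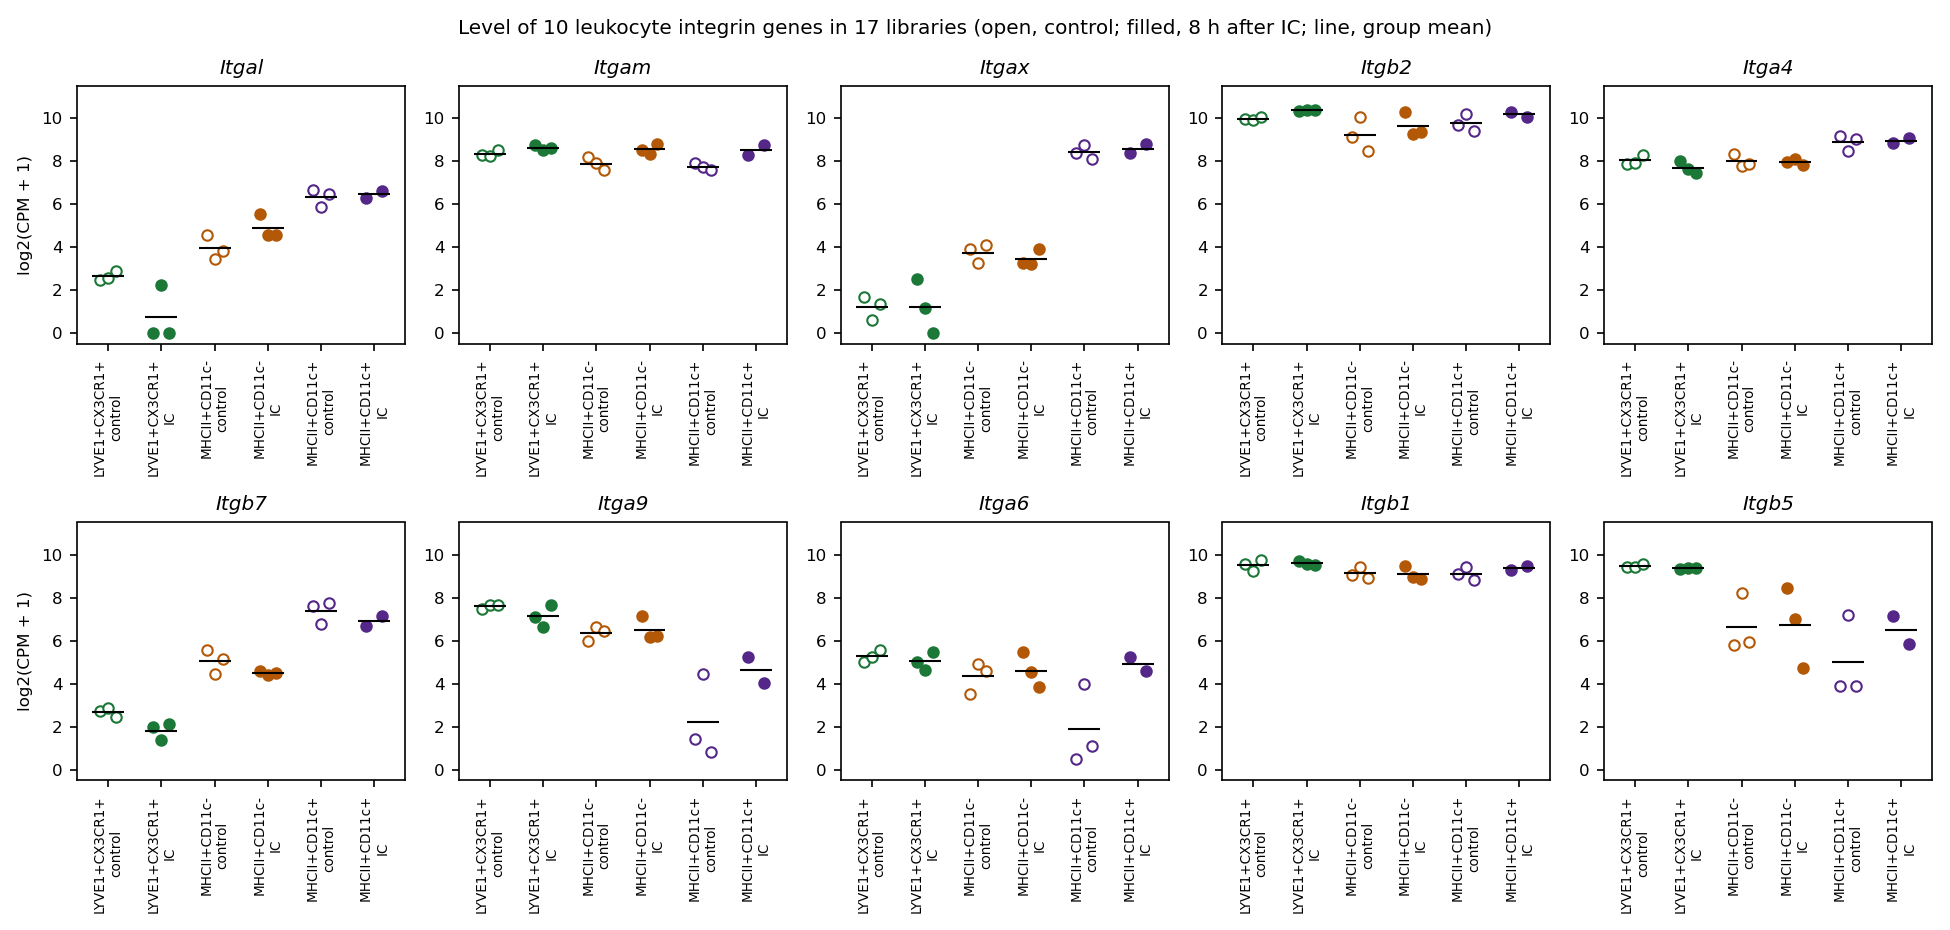
Each point is 1 library, and the vertical axis is log2(CPM + 1), with the subsets along the horizontal axis in control mice (open) and 8 h after IC (filled); the line is the group mean of the log values. Itgal, Itgax and Itgb7 climb from LYVE1+ to CD11c+ libraries, Itga9 and Itgb5 run the other way, and Itgam, Itgb2 and Itgb1 stay within 3.73-fold.

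Itgax (chromosome 7, 128129547 to 128150657, plus strand) encodes the protein used for the sort, so its differences check the gates and are not a finding. It was at 2.21, 0.541 and 1.54 CPM in LYVE1+ controls, 14.1, 8.48 and 16.1 CPM in CD11c- controls and 335, 435 and 275 CPM in CD11c+ controls. After IC the levels were 4.68, 1.26 and 0 CPM, 8.65, 8.24 and 14.3 CPM, and 331 and 443 CPM in the same order. CD11c+ libraries were above all others in both conditions. The call of LYVE1+ against CD11c- macrophages, -3.03 ± 0.54 in controls (adjusted p = 0.00959) and -2.24 ± 0.58 after IC (adjusted p = 0.0337), was kept by 11 of 14 alternatives in controls and by 5 of 14 after IC. In controls it was lost without LYVE1+ library 3 and at equal depth, where every library was drawn down to the same total. It was also lost with replicate number as a block in the model (adjusted p = 0.0518). After IC it was lost without library 2 or 3 of either subset, with no gene filter and in limma voom. A fit of the compared groups alone, equal depth and the replicate block (adjusted p = 0.117) also lost it. Without LYVE1+ library 1 it was -3.79.

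Itgal (chromosome 7, 127296260 to 127335138, plus strand) encodes CD11a, the alpha chain of LFA-1. Its level in controls was 4.57, 4.87 and 6.42 CPM in LYVE1+ libraries, 23.0, 10.1 and 13.4 CPM in CD11c- libraries and 100.4, 57.0 and 87.4 CPM in CD11c+ libraries. No control groups overlapped. CD11c+ controls were higher than LYVE1+ controls, with a log2 fold change of LYVE1+ against CD11c+ of -3.93 ± 0.59 (SE, adjusted p = 0.000106, edgeR), and higher than CD11c- controls by 2.39 ± 0.54 (adjusted p = 0.00819). The difference between LYVE1+ and CD11c- controls, -1.54 ± 0.56, did not pass (adjusted p = 0.263), and DESeq2 gave 0.0257.

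After IC, Itgal had 0 counts in LYVE1+ libraries 1 and 3, which allows up to 0.878 and 1.24 CPM, and 3.78 CPM in library 2. It was at 45.0, 22.5 and 22.6 CPM in CD11c- and 78.0 and 98.2 CPM in CD11c+ libraries. The excess of CD11c+ over CD11c- macrophages, 1.55 ± 0.56, did not pass after IC (adjusted p = 0.166, edgeR). DESeq2, limma voom and a fit of the compared groups alone called it. LYVE1+ libraries lay below all others. Itgal was lower there than in CD11c- macrophages (log2 fold change -4.48 ± 0.71, adjusted p = 0.000873) and than in CD11c+ macrophages (-6.03 ± 0.74, adjusted p = 2.52e-05). The sizes rest on a library with 12 counts and on libraries with none, so they depend on that library: without it the fitted value was -10.1 against CD11c- and -11.7 against CD11c+.

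Itgam (chromosome 7, 128062640 to 128118491, plus strand) encodes CD11b, the alpha chain of Mac-1. In controls it was at 309, 304 and 370.3 CPM in LYVE1+, 288, 240.2 and 189 CPM in CD11c- and 244, 214 and 190 CPM in CD11c+ libraries. LYVE1+ controls were above both other groups, which overlapped with each other. The step to CD11c+ was 0.60 ± 0.18 on the log2 scale (adjusted p = 0.0263), and this call was lost in 6 of 14 alternatives, including those without CD11c+ control library 2 or 3 and LYVE1+ control library 1 or 3. After IC the levels were 425, 369 and 388 CPM, 369, 324 and 447 CPM, and 316 and 433 CPM, and the 3 subsets overlapped. Summed markers of neutrophils, which also carry Mac-1, were at 30.3 to 40.0 CPM in LYVE1+, 39.8 to 213 CPM in CD11c- and 80.2 to 304 CPM in CD11c+ controls. After IC these sums were 12.6 to 32.8, 66.6 to 109 and 25.7 to 29.7 CPM. The marker Csf3r carried most of them after IC, at 47.9 to 92.5 CPM in CD11c- and 23.9 and 29.1 CPM in CD11c+ libraries. S100a9 was at 37.2 to 143 CPM in CD11c+ controls and at most 10.5 CPM in any library after IC. The part of neutrophils was not tested. Reads of Gm49368, which overlaps Itgam on its strand, were at most 6 counts in any library.

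Per kb of exon, Itgam made up nearly all of the summed level of the CD11 genes Itgal, Itgam and Itgax outside the CD11c+ subset, 98.2% to 98.6% in LYVE1+ controls and 87.5% to 93.5% in CD11c- controls. In CD11c+ controls its share was 30.1% to 36.3%, that of Itgax was 52.2% to 63.8% and that of Itgal 6.12% to 12.3%. After IC the share of Itgam in CD11c+ libraries was 43.8% and 44.6%. Itgax was the gene of the sort, so the gate enters these shares in the CD11c+ subset.

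**Figure D2:**
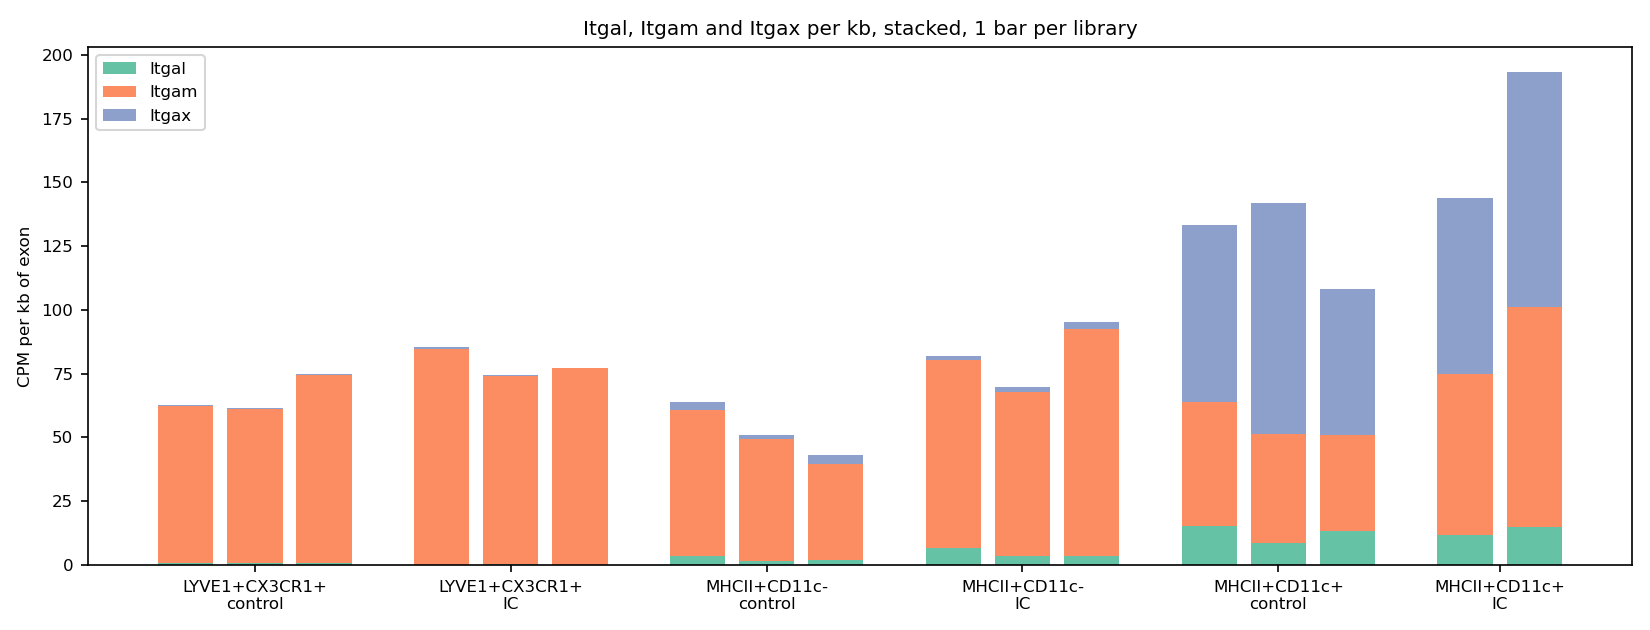
Stacked bars give Itgal, Itgam and Itgax in CPM per kb of exon, 1 bar per library, by subset and condition. Itgam fills most of each bar in the LYVE1+ and CD11c- libraries, and Itgax adds the upper 47.7% to 63.8% in the CD11c+ libraries.

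Itgb2 (chromosome 10, 77530252 to 77565708, plus strand), the CD18 chain shared by the CD11 chains, was high in every library. It was at 984, 980.5 and 1067 CPM in LYVE1+, 559, 1048 and 354 CPM in CD11c- and 819, 1181 and 670 CPM in CD11c+ controls. Library 2 of each MHCII+ subset reached the LYVE1+ levels or passed them. Levels after IC were 1302, 1319 and 1323 CPM, 1247, 612 and 651 CPM, and 1251 and 1074 CPM. No subset difference of Itgb2 passed, and leaving out CD11c- control library 2 gave calls against both other subsets (log2 fold change of LYVE1+ 1.14, adjusted p = 0.0315, and of CD11c+ 0.96, adjusted p = 0.0333). The summed CD11 level per kb was 0.2 ± 0.013 of Itgb2 in LYVE1+, 0.289 ± 0.122 in CD11c- and 0.453 ± 0.075 in CD11c+ controls (SD, n = 3 each). This sum includes Itgax, the gene of the sort, which made up 52.2% to 63.8% of it in CD11c+ controls. The higher ratio of that group is therefore not a finding apart from the gate.

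Itgb7 and Itga4 encode the chains of alpha4beta7, and Itgb7 parted all 3 subsets. Itgb7 (chromosome 15, 102215995 to 102231944, minus strand) was at 5.67, 6.22 and 4.47 CPM in LYVE1+, 47.1, 21.2 and 34.8 CPM in CD11c- and 195, 108 and 214 CPM in CD11c+ controls. After IC it was at 2.93, 1.57 and 3.32 CPM, 23.1, 20.2 and 21.5 CPM, and 102 and 140 CPM. In both conditions the 3 groups did not overlap and stood in the same order.

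Against CD11c- macrophages, Itgb7 in LYVE1+ macrophages was lower by a log2 fold change of -2.66 ± 0.33 in controls (adjusted p = 3.32e-05) and -3.06 ± 0.38 after IC (adjusted p = 2.68e-05). Against CD11c+ macrophages it was lower by -4.99 ± 0.35 (adjusted p = 7.64e-10) and -5.55 ± 0.40 (adjusted p = 2.01e-09). CD11c+ macrophages were above CD11c- macrophages by 2.32 ± 0.30 (adjusted p = 1.55e-05) and 2.49 ± 0.33 (adjusted p = 5.67e-05). These calls held in every alternative but limma voom with quality weights for LYVE1+ against CD11c- after IC (adjusted p = 0.112).

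Itga4 (chromosome 2, 79255426 to 79333123, plus strand) encodes the alpha4 chain. In controls it was at 236, 240 and 317 CPM in LYVE1+, 321, 220 and 234 CPM in CD11c- and 578, 358 and 523 CPM in CD11c+ libraries. Only the CD11c+ libraries were apart. Their excess over CD11c- was 0.91 ± 0.20 (adjusted p = 0.0046) and LYVE1+ was lower than they were by -0.88 ± 0.20 (adjusted p = 0.0033, and 0.056 with 2 surrogate variables in the model). After IC the levels were 258, 196 and 177 CPM, 248, 274 and 226 CPM, and 456 and 533 CPM. The CD11c+ and LYVE1+ differences were 0.99 ± 0.22 (adjusted p = 0.00923) and -1.23 ± 0.22 (adjusted p = 0.00051), and the first of these was lost without CD11c+ library 2 or CD11c- library 3 after IC, with an adjusted p of up to 0.207. Cerkl, on the other strand, overlaps Itga4 and had at most 28 counts in a library.

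Markers of some other cell types were highest in the CD11c+ subset, where Itgal, Itgb7 and Itga4 were highest, and those of others were not. The T and NK cell list had 3 of its 8 markers in the table, and their sum was 34.8 to 44.6 CPM in CD11c+ controls and 68.2 and 71.3 CPM after IC against 0 to 10.9 CPM in the other groups. Il7r carried most of it, at 34.8 to 70.4 CPM. Cd3d was at 0 in CD11c+ controls and at 0.588 and 0.733 CPM after IC. Ccr2, a chemokine receptor of monocytes, also followed the subset, at 547 to 1152 CPM in CD11c+, 224 to 481 CPM in CD11c- and 18.3 to 38.1 CPM in LYVE1+ controls, and at 721 to 970.2, 192 to 349 and 4.15 to 21.6 CPM after IC. The summed monocyte list was 589 to 1190 CPM in CD11c+, 343 to 545 CPM in CD11c- and 465 to 722 CPM in LYVE1+ controls, where Vcan carried it. After IC this sum was 798 and 1050 CPM, 405 to 535 CPM and 483 to 589 CPM, while Ly6c2 was at 0 in all LYVE1+ libraries and at most 5.12 CPM elsewhere. The dendritic cell markers did not part the MHCII+ subsets as a sum, but single markers did, in both directions. All 8 were in the table, and their sum was 317 to 761 CPM in CD11c+ controls, 346 to 893 CPM in CD11c- controls and 95.7 to 166 CPM in LYVE1+ controls. The sum after IC was 324 and 523 CPM, 273 to 675 CPM and 18.3 to 65.1 CPM in this order. Flt3, a dendritic cell growth factor receptor, was at 54.0, 16.2 and 40.1 CPM in CD11c+ and 15.8, 6.36 and 18.7 CPM in CD11c- controls. After IC it was at 42.3 and 47.3 against 1.38 to 4.53 CPM. Ccr7, Zbtb46 and Batf3 were higher in CD11c+ than in CD11c- libraries in both conditions, without overlap. Ccr7 after IC was at 68.6 and 98.6 against 0.826 to 3.3 CPM. Clec10a was lower, at 64.8 to 170 against 240 to 642 CPM in controls. Cd209a overlapped in controls, and Xcr1 and Clec9a were at most 11.7 CPM. Summed markers of mast cells, which can carry alpha4beta7, were at 0.425 to 3.4 CPM in CD11c+ controls and 0.353 to 4.69 CPM in CD11c- controls. They were at 20.4 and 46.2 CPM in CD11c+ libraries after IC, and at 1.11, 32.3 and 2.48 CPM in CD11c- libraries. The part of other cells in the integrin levels was not tested, and in bulk samples fewer cells of a type and less RNA per cell cannot be told apart.

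Itga9, Itga6 and Itgb5 were highest in LYVE1+ macrophages among the control groups. Itga9 (chromosome 9, 118606690 to 118901003, plus strand), the alpha9 chain, was at 179, 199.5 and 200.2 CPM in LYVE1+, 63.1, 99.7 and 87.3 CPM in CD11c- and 1.7, 21.0 and 0.756 CPM in CD11c+ controls. No groups overlapped, and CD11c+ library 2 stood far above its group. Itga9 was higher in LYVE1+ than in CD11c+ controls by 4.50 ± 0.82 on the log2 scale (adjusted p = 0.0026). It was lower in CD11c+ than in CD11c- controls by -3.29 ± 0.79 (adjusted p = 0.0234), a call lost without CD11c+ control library 1 or CD11c- control library 3, at equal depth and in a fit of the compared groups alone. Without CD11c+ control library 2 these differences were 7.14 (adjusted p = 3.65e-08) and -5.93 (adjusted p = 7.41e-07). After IC it was at 139, 98.8 and 199 CPM, 141, 70.9 and 74.0 CPM, and 37.0 and 15.4 CPM, and no subset difference passed in edgeR. LYVE1+ against CD11c+ was 2.46 ± 0.86 (adjusted p = 0.091), without overlap, and CD11c+ against CD11c- was -1.85 ± 0.84 (adjusted p = 0.348). Both were called in limma voom and in a fit of the compared groups alone, and the first also in DESeq2. Itga9 overlaps Gm10157 and Gm2415 on the other strand, which had at most 31 and 18 counts in a library.

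Itga6 (chromosome 2, 71745616 to 71858416, plus strand), the alpha6 chain, was at 31.5, 36.5 and 45.9 CPM in LYVE1+, 10.7, 29.0 and 23.1 CPM in CD11c- and 0.425, 15.1 and 1.14 CPM in CD11c+ controls. Library 2 again stood above the others of the CD11c+ group. LYVE1+ exceeded CD11c+ controls by 2.69 ± 0.82 (adjusted p = 0.0403), a call that 8 of 14 alternatives lost. Leaving out any of the 3 LYVE1+ control libraries, or CD11c+ control library 1 or 3, was enough to lose it. Without CD11c+ control library 2 the difference was 5.70 (adjusted p = 3.23e-06), and Itga6 was also called lower in CD11c+ than CD11c- controls (-4.84, adjusted p = 5.72e-05). After IC it was at 30.7, 23.9 and 44.0 CPM, 43.5, 22.0 and 13.2 CPM, and 36.4 and 22.7 CPM, and the subsets overlapped.

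Itgb5 (chromosome 16, 33829665 to 33949338, plus strand) encodes the beta5 chain. It was at 690.1, 690.5 and 749 CPM in LYVE1+, 54.4, 297 and 59.5 CPM in CD11c- and 14.04, 147 and 13.99 CPM in CD11c+ controls. After IC the levels were 649, 670.4 and 671 CPM, 347, 127 and 25.9 CPM, and 140.1 and 56.4 CPM. Every LYVE1+ library was above every other library, and the levels inside the other groups were spread widely. No subset difference passed in the edgeR model of the 6 groups. The log2 fold change of LYVE1+ against CD11c+ controls was 3.58 ± 1.14 (adjusted p = 0.0571), and DESeq2 gave an adjusted p of 0.00249. With replicate number as a block in the edgeR model this difference was called (adjusted p = 0.0166). Against CD11c- controls it was 2.37 ± 1.08 (adjusted p = 0.488), and limma voom gave an adjusted p of 0.0384. After IC, LYVE1+ against CD11c+ was 2.75 ± 1.29 (adjusted p = 0.207). Only limma voom and a fit of the compared groups alone called it, and no alternative called LYVE1+ against CD11c- after IC. Without CD11c+ control library 2 the difference of LYVE1+ against CD11c+ controls was 5.66 (adjusted p = 0.00964).

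In each of the 4 MHCII+ groups, the library highest for Itgb5, Itga9 and Itga6 was also the highest for the summed genes of the LYVE1+ subset. The summed level of Lyve1, Cx3cr1, Vsig4, Sparc, Timd4 and Folr2, a list chosen after values were seen, was 3854, 3847 and 4735 CPM in LYVE1+ controls. It was 1021, 1903 and 1146 CPM in CD11c- controls and 100.2, 632 and 64.3 CPM in CD11c+ controls, highest in library 2 of both groups. The sum after IC was 5904, 6292 and 7015 CPM, 3367, 1844 and 2854 CPM, and 574 and 281 CPM, highest in library 1 of both MHCII+ groups. The order did not hold for every library, since CD11c- library 3 after IC had the second highest sum of its group and the lowest Itgb5, 25.9 CPM. Nor did every gene of the sum follow it. In CD11c- controls Timd4 and Folr2 were lowest in library 2, Folr2 at 87.5 CPM against 126 and 129 CPM. In CD11c- macrophages after IC Lyve1, Timd4 and Folr2 were highest in library 3, and Cx3cr1, Vsig4 and Sparc in library 1. Itgav, the alphav partner of beta5, was at 56.7, 247 and 76.2 CPM in CD11c- controls and at 323, 342 and 403 CPM in LYVE1+ controls. Whether cells of the LYVE1+ subset were present in those libraries was not tested.

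**Figure D3:**
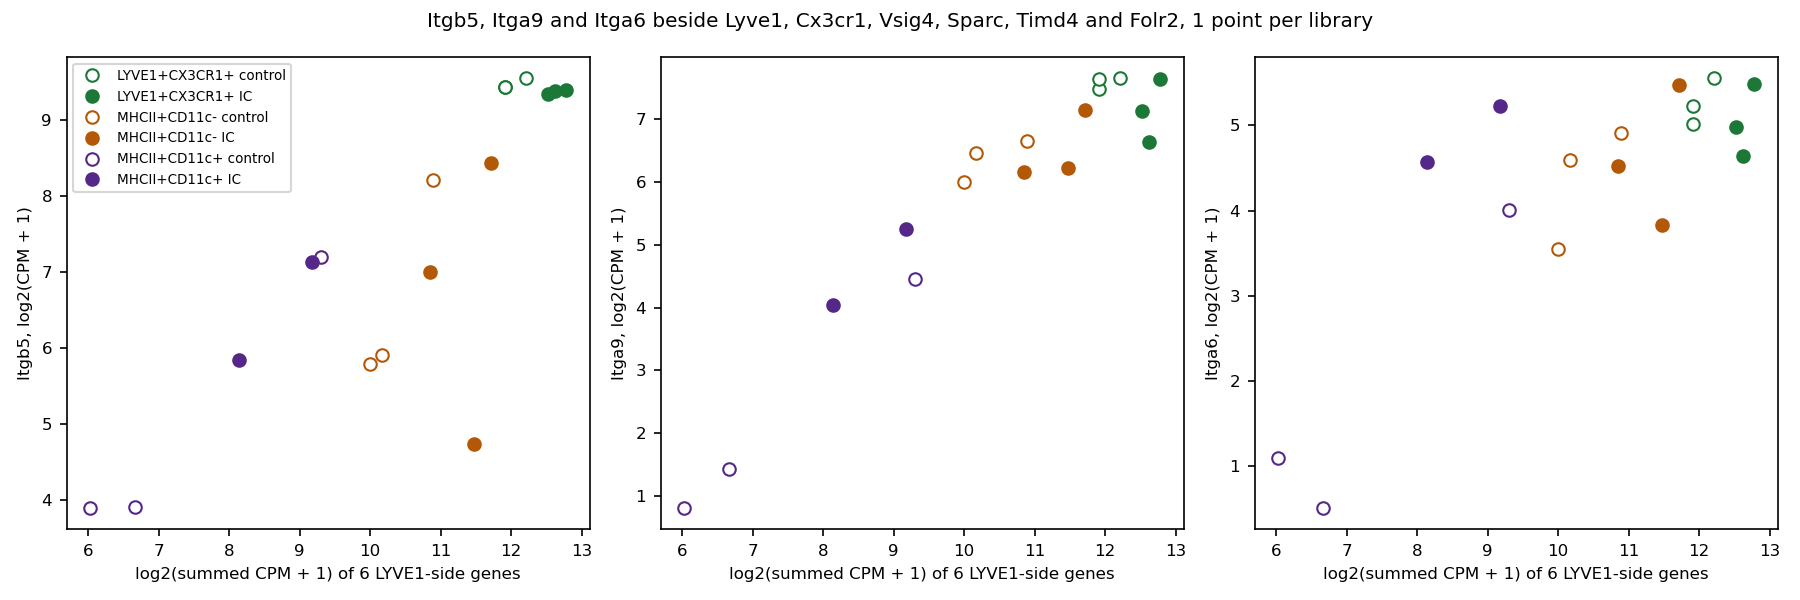
Each point is 1 library, with log2(CPM + 1) of Itgb5, Itga9 or Itga6 against log2(summed CPM + 1) of Lyve1, Cx3cr1, Vsig4, Sparc, Timd4 and Folr2. CD11c+ control library 2 has a sum of 632 CPM against 100.2 and 64.3 CPM in the other libraries of its group, and is also above them for all 3 integrins.

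Itgb1 (chromosome 8, 128685654 to 128733200, plus strand) encodes the beta1 chain that alpha4, alpha6 and alpha9 share. In controls it was at 747, 601 and 872 CPM in LYVE1+, 536, 680 and 482 CPM in CD11c- and 547, 685 and 450 CPM in CD11c+ libraries. After IC it was at 832, 757 and 730 CPM, 710.0, 492 and 474 CPM, and 623 and 703 CPM. Control groups overlapped, and no difference passed in the 6 subset comparisons. The widest was 0.47 ± 0.19 on the log2 scale, for LYVE1+ against CD11c- after IC (adjusted p = 0.158, and 0.0309 without CD11c- library 1 after IC).

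Counts of integrins called (adjusted p under 0.05) are read beside the share of all 15272 genes called in the same comparison. In controls, LYVE1+ against CD11c- called 2 of 10 integrins, Itgax and Itgb7, beside 1.56% of all genes. LYVE1+ against CD11c+ called 7 of 10 beside 15.2%, and CD11c+ against CD11c- called 5 of 10 beside 8.66%. After IC the counts were 3 of 10 (Itgal, Itgax, Itgb7) beside 5.54%, 4 of 10 (Itgal, Itgax, Itga4, Itgb7) beside 11.9%, and 3 of 10 (Itgax, Itga4, Itgb7) beside 4.03%. Itgax is in each count through the gate. The comparisons of a condition share libraries, so their counts are not independent.

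**Figure D4:**
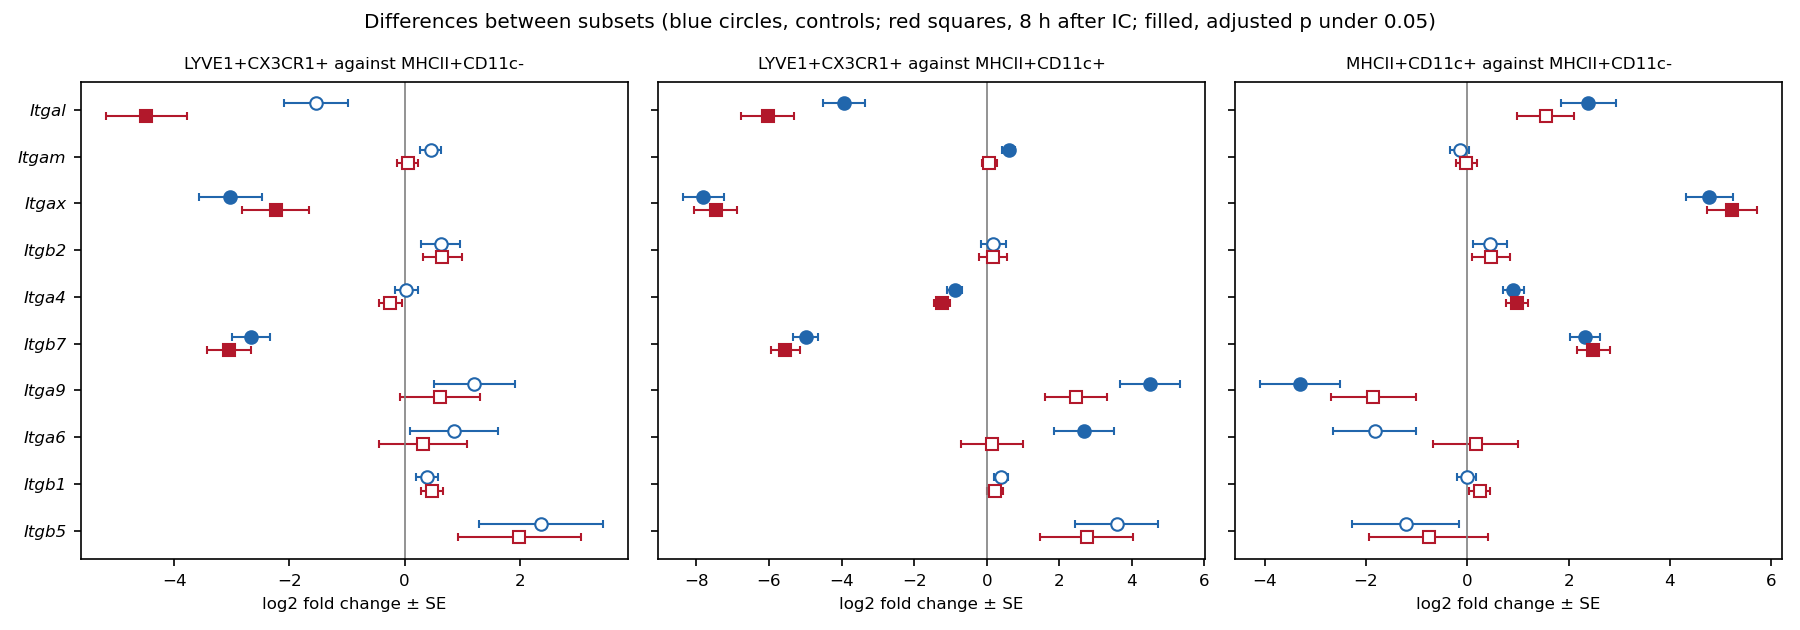
The horizontal axis is the log2 fold change between subsets with its SE for each of the 10 integrins, in controls (blue circles) and after IC (red squares); filled symbols passed an adjusted p of 0.05. Itgb7 is filled in all 6 comparisons, and Itgb5 lies at 1.99 to 3.58 in the 4 comparisons with LYVE1+ macrophages, with long bars and open symbols. Each panel has its own horizontal scale.

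The response to IC was compared within each subset. No integrin passed: 0 of 10 in LYVE1+ macrophages beside 0.963% of all genes, 0 of 10 in CD11c- beside 0.701%, and 0 of 10 in CD11c+ beside 0.216% (edgeR). At an unadjusted p under 0.05 there were 2 of 10 in each subset, beside 14.1%, 9.99% and 5.21% of all genes. limma voom also called 0, and DESeq2 called 1, Itgam in CD11c- macrophages. The fold changes of all genes had a median of -0.14 in LYVE1+ macrophages and between -0.03 and 0.01 in the other subsets.

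Itgam had the lowest p in both MHCII+ subsets. Its levels after IC were above every control library of the same subset in CD11c-, by 0.67 ± 0.18 on the log2 scale (adjusted p = 0.105, DESeq2 0.042), and in CD11c+, by 0.80 ± 0.20 (adjusted p = 0.151). In LYVE1+ macrophages the difference was 0.26 ± 0.18 (adjusted p = 0.563). Itgb7 in LYVE1+ macrophages was at 1.57 to 3.32 CPM after IC and at 4.47 to 6.22 CPM in controls, without overlap (log2 fold change -1.06 ± 0.40, adjusted p = 0.219). These were 5 to 10 counts after IC and 23 to 36 counts in controls. At equal depth, LYVE1+ libraries after IC had 11547 to 13837 genes with a count, against 16279 to 17229 in LYVE1+ controls. The part of this lower detection in the fall of low genes was not tested.

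Itgal in LYVE1+ macrophages had a log2 fold change of -1.99 ± 0.74 (adjusted p = 0.22). These groups did not overlap, with 4.57 to 6.42 CPM in controls. The lower number of genes detected in LYVE1+ libraries after IC limits this comparison too. Without library 2 after IC, the one library with counts, the adjusted p was 0.00539. Itga9 and Itga6 in CD11c+ macrophages had 1.63 ± 0.83 (adjusted p of 1) and 2.33 ± 0.87 (adjusted p = 0.764). Without control library 2, which had the raised LYVE1-side genes, they were 4.27 (adjusted p = 0.000469) and 5.34 (adjusted p = 0.000189), so this library decided the call.

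**Figure D5:**
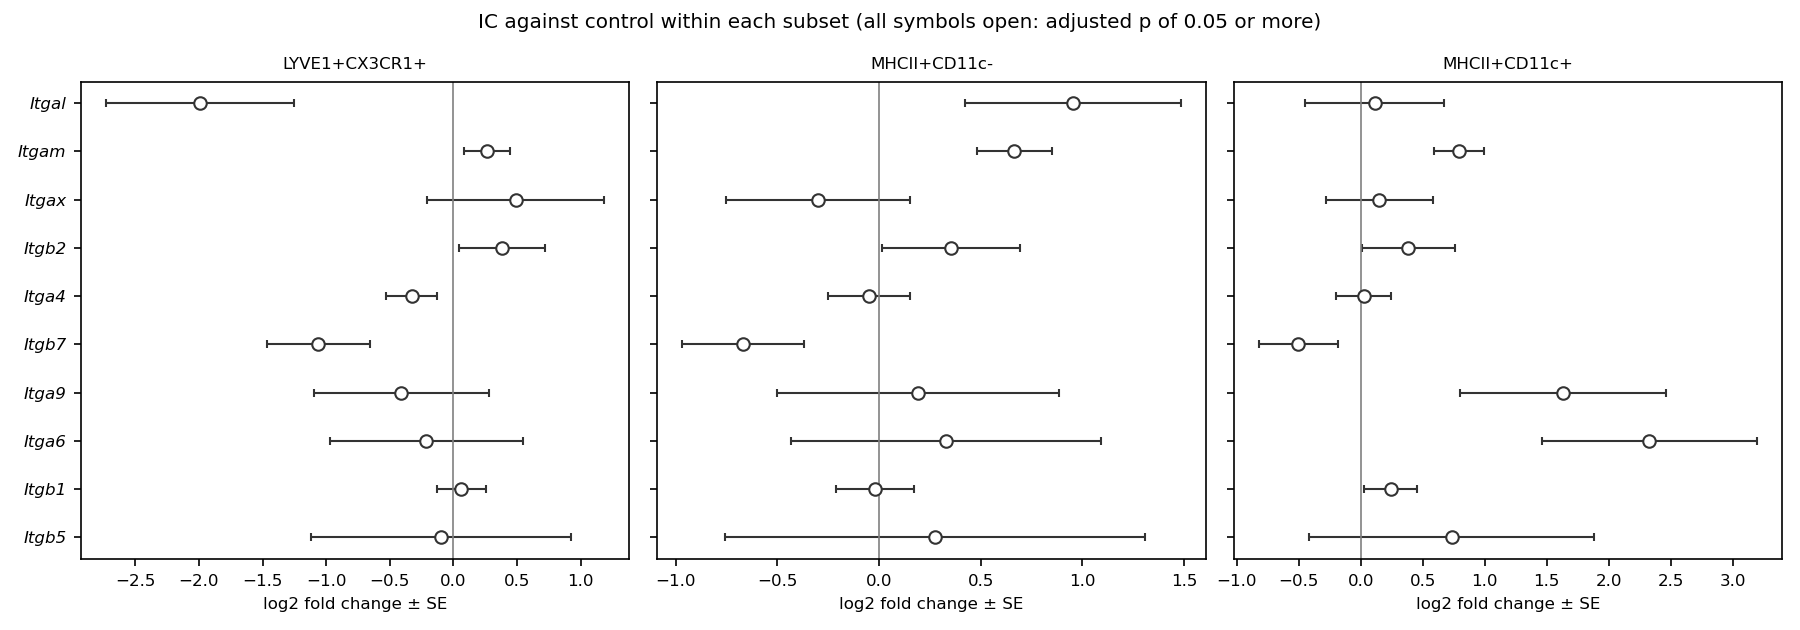
The horizontal axis is the log2 fold change of IC against control with its SE for each integrin, in each of the 3 subsets. All 30 symbols are open, since none passed; Itgam lies at 0.26, 0.67 and 0.80, and Itgal at -1.99, 0.95 and 0.11. Each panel has its own horizontal scale.

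Differences between the responses of subsets were tested as interactions. LYVE1+ minus CD11c- called 0 of 10 integrins beside 0.0262% of all genes, LYVE1+ minus CD11c+ 0 of 10 beside 0.0327%, and CD11c+ minus CD11c- 0 of 10 beside 0%. At an unadjusted p under 0.05 the counts were 1, 2 and 0 of 10 beside 7.54%, 8.02% and 3.25% of all genes, and DESeq2 and limma voom called 0 in each. The lowest p was that of Itgal for LYVE1+ minus CD11c-, with a difference of -2.94 ± 0.91 (unadjusted p = 0.00467, adjusted p = 0.428). Without LYVE1+ library 2 after IC the adjusted p of this difference was 0.0146, and that of LYVE1+ minus CD11c+ was 0.0355. Without CD11c+ control library 2, Itga9 and Itga6 were called for LYVE1+ minus CD11c+ (differences of -4.68 and -5.56, adjusted p = 0.00133 each) and for CD11c+ minus CD11c- (4.08 and 5.01, adjusted p = 0.0121 and 0.0116).

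Other integrin subunits, ligands, regulators of integrin activation and parts of the adhesion complex were counted as lists. The regulators include genes that can act against activation, such as Flna, so their counts give no direction of activation. In LYVE1+ against CD11c+ controls, 15.2% of all genes were called, 7.83% higher and 7.4% lower. Of 11 other subunits tested, 2 were lower in LYVE1+ controls, Itga1 and Itgb3. Itga1, the collagen-binding alpha1 chain, was at 0.315, 0 and 1.12 CPM in LYVE1+ and 38.9, 24.1 and 14.4 CPM in CD11c+ controls (log2 fold change -5.51 ± 0.91, adjusted p = 0.00011, and -6.92 without LYVE1+ library 3). After IC it was at 0 to 0.63 CPM and at 39.2 and 31.0 CPM (-6.59 ± 1.06, adjusted p = 0.00016), and the groups did not overlap in either condition. Itgb3, the beta3 chain, was at 0, 0 and 0.419 CPM in LYVE1+ and 5.74, 18.4 and 0 CPM in CD11c+ controls, so the groups overlapped. Its call (adjusted p = 0.0226) was lost without CD11c+ control library 2 (adjusted p = 0.122) and without LYVE1+ control library 1 or 2 (adjusted p = 0.104 and 0.0902).

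Of 17 ligands tested, 2 were higher and 3 lower in LYVE1+ than in CD11c+ controls, beside the same 15.2% of all genes. Vcam1, the ligand of alpha4 and alpha9 integrins, was at 0.788, 0.811 and 2.65 CPM in LYVE1+ and 5.96, 17.7 and 15.9 CPM in CD11c+ controls (log2 fold change -3.13 ± 0.73, adjusted p = 0.0037, and -4.03 without LYVE1+ library 3). In CD11c- macrophages Vcam1 rose after IC, from 2.77, 7.07 and 8.02 CPM to 25.3, 41.4 and 64.4 CPM (2.88 ± 0.68, adjusted p = 0.0461). It was the 1 of 17 ligands called in this response, beside 0.701% of all genes, and no ligand was called in the other subsets. This call was lost in 7 of 14 alternatives, among them those without CD11c- control library 1, 2 or 3 or CD11c- library 2 or 3 after IC, with an adjusted p of up to 0.309. Icam1, the ligand of LFA-1 and Mac-1, was at 347, 422 and 346 CPM in LYVE1+ controls and lower than in CD11c+ controls (504 to 722 CPM, log2 fold change -0.79 ± 0.17, adjusted p = 0.00189). Mfge8, a bridge to alphav integrins, was higher in LYVE1+ controls by 2.46 ± 0.49 (adjusted p = 0.000919), and by 3.13 without CD11c+ control library 2.

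Of 22 adhesion complex genes tested, 5 were higher and 3 lower in LYVE1+ than in CD11c+ controls, again beside 15.2% of all genes. Tns1, tensin 1, was at 1948 ± 204 CPM in LYVE1+ and 360.4 ± 113 CPM in CD11c+ controls (SD, n = 3 each). Its log2 fold change was 2.43 ± 0.20 (adjusted p = 8.51e-09). Zyx, zyxin, was lower in LYVE1+ controls by -1.61 ± 0.18 (adjusted p = 9.26e-07), and so was Fgr, a Src family kinase, by -2.95 ± 0.36 (adjusted p = 6.38e-06). Of 17 regulators of activation tested, 3 were higher and 2 lower in LYVE1+ controls, beside the same 15.2% of all genes. Among them Tln2, talin 2, was higher by 4.17 ± 0.80 (adjusted p = 0.000847, and 6.39 without CD11c+ control library 1). Flna, filamin A, which competes with talin for integrin tails, was lower by -0.88 ± 0.19 (adjusted p = 0.00225). In CD11c- macrophages after IC against control, 1 of 17 regulators of activation was called, beside 0.701% of all genes. This was Cyth1 (0.77 ± 0.18, adjusted p = 0.0418). That call was lost in 8 of 14 alternatives, including those without CD11c- control library 1 or 3 or CD11c- library 1 or 3 after IC, with an adjusted p of up to 0.342. The list medians for LYVE1+ against CD11c+ controls were -1.85 for other subunits, 0.44 for ligands, 0.15 for regulators of activation and 0.00 for adhesion complex genes, beside 0.05 over all genes.

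The profile of each integrin was compared with those of all tested genes by the root-mean-square difference of centred log2 CPM over the 17 libraries. Itgb7 was closest to Ipcef1 (0.54), Il1r1 (0.59) and Il1r2 (0.61), against a median of 2.2 over all genes. Itga9 was closest to S1pr1 (0.44), the receptor for sphingosine-1-phosphate, and Itgb5 to Pald1 (0.49), Ccn1 (0.55) and Aqp1 (0.58). Itgal was closest to Rasgrp1 (0.68). Itgb1 and Itgb2, with ranges of 1.94-fold and 3.73-fold, were closest to Bnip2 (0.14) and Niban2 (0.16).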

How the data were processed

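The authors made stranded libraries from 5 ng of total RNA, trimmed reads with Trim Galore, checked them with FastQC, aligned them to mm10 with HISAT2 and counted them with featureCounts; versions, the annotation and the use of strand are not given in the sources used here. The deposited values are counts, whole reads per gene symbol without normalization. Of the columns of the joint table, 1 matched no sample, held 0 counts and was not used. Replicate libraries differed beyond sampling noise, with a lowest chi-square per degree of freedom of 6.77.

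Genes were kept by filterByExpr (minimum count 10), scaled by TMM and tested in edgeR 4.0.16 (R 4.3.3) by a quasi-likelihood model of the 6 groups over all 17 libraries with 11 residual degrees of freedom. Adjusted p-values are Benjamini-Hochberg values over the 15272 genes of a contrast, called under 0.05, and ± on a fold change is its SE. CPM uses the TMM library sizes. Levels per kb use exon lengths of GENCODE M21 on GRCm38, which also gave gene positions. DESeq2 1.42.0, limma 3.58.1 and sva 3.50.0 served as alternatives, and the tests were tested on simulated data. A count of 3 or fewer is the floor, and floors cover counting error only, since PCR copies of reads are not independent.

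Named genes are the 10 integrins, up to 3 called genes per related list and direction in each comparison and the 3 closest profiles per integrin, of which a part is given. The members and lists were chosen with earlier results of these data known. Itgav was added after values were seen. A call of 1 gene from the related lists after IC is not reported here.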

Additional observations from a re-analysis of the deposited data

How the results depend on the processing

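Integrins called between subsets numbered 14 over the 3 comparisons in controls and 10 after IC, and none changed direction under any alternative. Alternatives were no gene filter, RLE scaling, DESeq2, limma voom, a fit of the compared groups alone, 2 surrogate variables, an adjusted p of 0.01, equal depth (chosen after seeing the data) and leaving out each library. Of the 24 calls, 16 held throughout. These counts include Itgax, whose calls of CD11c+ against the other subsets held throughout but were fixed in advance by the sort. For responses to IC, with 0 calls, DESeq2 called 1 integrin, and leaving out a library gave between 0 and 2. The 2 were Itga9 and Itga6 without CD11c+ control library 2, and 1 was Itgal without LYVE1+ library 2 after IC. For differences of responses, with 0 calls, leaving out a library gave between 0 and 4, through the same libraries.

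Replicate numbers were not taken to pair the samples, since the labels do not say whether same-numbered libraries share mice. The deviations of same-numbered libraries correlated above 0.1 in 2 of 40 pairs of groups and numbers (highest 0.286). Within a condition this was 2 of 16 pairs, and all 16 lay between 0.00129 and 0.286. These values do not decide whether the libraries are paired. As a hint from the data, not the design, 25 of 34 library-by-group comparisons within a condition were closest to their own number. Each had 2 or 3 libraries to choose from, and the share expected without pairing was not computed. The main model, which has no block, would ignore a pairing if there was one. With the replicate block the counts were 14 in controls and 9 after IC, and 0 for responses and for their differences. The block was replicate number within each condition, except for responses. There it was replicate number across conditions, which ties control and IC libraries of the same number and so does not check pairing within a condition. The block changed 3 integrin calls: Itgax of LYVE1+ against CD11c- was not called in controls (adjusted p = 0.0518) or after IC (adjusted p = 0.117), and Itgb5 of LYVE1+ against CD11c+ controls was called (4.59, adjusted p = 0.0166). Of the named genes outside the 10, Itgb3 in controls and Cyth1 after IC were not called with the block. RLE scaling moved the median over all genes for LYVE1+ macrophages after IC against control from -0.14 to -0.05. Libraries with 0 or few counts, such as Itgal and Itgax in LYVE1+ macrophages, limit their fold changes.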
